A study of Mus musculus with 8 samples.

Results

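The NCoR-HDAC3 corepressor complex was followed through 5 of its genes, *Ncor1*, *Hdac3*, *Tbl1x*, *Tbl1xr1* and *Gps2*, which were picked by gene symbol from the 18990 genes of the expression table. All 5 genes passed the filter on low values (an average over the libraries of 1 CPM or more, CPM being reads scaled to a common library size) that left 13866 genes for testing. The question was whether a lower level of *Ncor1* mRNA goes along with a change in its partners.

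RNA-seq was performed on wild-type BL6 primary mouse embryonic fibroblasts (MEFs) on the way to induced pluripotent stem cells. All cultures were exposed to the inducible tet-STEMCCA lentivirus, which holds the Oct4, Sox2, Klf4 and c-Myc (OSKM) transgenes, and to an rtTA lentivirus. They received 40 nM of a pool of siRNAs and were then induced with doxycycline in reprogramming medium at passage 2. The groups differed in the siRNA pool, against *Ncor1* (*siNcor1*) or *Oct4* (*siOct4*), and in the day of RNA collection, day 3 or day 6, with 2 libraries in each of 4 groups, which the series' design text calls biological replicates. Libraries of a non-targeting control were not analysed here, so a knockdown difference always means *siNcor1* minus *siOct4*, and either side can produce it. *Oct4* is itself part of the induced cassette, and a library is a mixture of all transduced and untransduced cells in the well.

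NCOR1 is a large scaffold protein without enzymatic activity of its own. It binds DNA-bound factors, best known among them nuclear receptors without an activating ligand, and brings with it the histone deacetylase HDAC3, which needs contact with the scaffold to become active. TBL1X and TBL1XR1, closely related WD40-repeat proteins, and the small protein GPS2 complete the core, and the complex removes acetyl groups from histones at the genes it represses.

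A read from *Tbl1x* could in principle be counted on its close relative *Tbl1xr1*, or the reverse. The longest stretch identical in both coding sequences is therefore shown, read from GENCODE M21 transcripts on GRCm38 (mm10). Capitals mark the longest run identical in both genes, with 30 bases on each side in lower case, 5′ to 3′ on the coding strand. It covers coding positions 1159 to 1178 of *Tbl1x* (transcript Tbl1x-201, exons 12 and 13, chrX:77652836-77653230, plus strand) and 1120 to 1139 of *Tbl1xr1* (Tbl1xr1-203, exons 13 and 14, chr3:22200662-22203113, plus strand).
Tbl1x: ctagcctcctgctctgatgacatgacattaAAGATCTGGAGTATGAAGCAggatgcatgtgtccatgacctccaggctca
Tbl1xr1: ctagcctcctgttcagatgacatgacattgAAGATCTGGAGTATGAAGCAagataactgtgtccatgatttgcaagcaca
The longest identical run was 20 bases, shorter than the 43-base windows with which each transcript was compared with all other transcripts. Only exact matches were compared, so reads that align with mismatches were not examined.

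No 43-base window of *Hdac3* or *Tbl1x* was found in the transcript of another gene. *Tbl1xr1* shared 40 of 8985 windows (0.445%), *Ncor1* 257 of 12208 (2.11%, of which 131 with *Gm6743*), and *Gps2* 66 of 1549 (4.26%), all of them with *Gm5221*.

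*Ncor1* (ENSMUSG00000018501) lies on chr11:62316426-62458541 on the minus strand of mm10 and *Hdac3* (ENSMUSG00000024454) on chr18:37935844-37955016 on the minus strand. *Tbl1x* (ENSMUSG00000025246) lies on chrX:77511013-77662983, *Tbl1xr1* (ENSMUSG00000027630) on chr3:22076652-22216594 and *Gps2* (ENSMUSG00000023170) on chr11:69913888-69916591, all on the plus strand. *Ncor1* shares 82 exonic bases with *Pigl* and 1 with *Ttc19*, both on the opposite strand, and whether reads were counted by strand is not given in the sources used here. At day 3 the knockdown difference of *Pigl* was 0.22 (log2, adjusted p = 0.829) and that of *Ttc19* 0.020 (adjusted p = 0.987, limma with Benjamini-Hochberg adjustment).

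The 8 libraries held between 7735742 and 16445192 reads on genes, recovered from the deposited values. *Gm26917* took 15.5% to 16.6% of the reads at day 3 and 20.3% to 29.1% at day 6, highest in *siOct4* day 6 replicate 1, and the replicates of *siOct4* at day 6 stood furthest apart (chi-square per degree of freedom 19.1, against 8.58 to 9.55 in the other groups). Reads on *Pou5f1*, the gene of OCT4, were not detectably lower in the libraries labelled *siOct4*. The knockdown difference was 0.076 at day 3 (adjusted p = 0.941) and -1.78 at day 6 (adjusted p = 1.1e-04, limma). *Pou5f1* was thus higher in the libraries labelled *siOct4* at day 6. The authors describe this knockdown as transient, with the mRNA silenced early and soon recovering in a time course by RT-qPCR. They ascribe the recovery to strong expression from the induced cassette, which was not tested here. Of the markers of the starting cells, all 11 fibroblast genes were detected, with a summed level of 8338 to 8506 CPM in *siNcor1* and 11070 to 12540 in *siOct4* at day 3, and of 6324 to 6528 and 3520 to 3699 at day 6. The 9 epithelial genes summed to 92.5 to 94.3 CPM in *siNcor1* and 38.1 to 45.7 in *siOct4* at day 3, and to 709 to 747 and 318 to 352 at day 6. In bulk RNA, fewer cells of a type and less RNA per cell cannot be told apart. The 8 pluripotency genes, 7 of them detected, summed to 7.61 to 7.95 CPM in *siNcor1* at day 3 and 1.42 to 3.67 in *siOct4*. At day 6 they summed to 108 to 116 and 44.6 to 51.3. Over all libraries, endothelial markers summed to 16.4 to 44.3 CPM (1 of 4 in the table with a mean of 1 CPM or more), macrophage markers to 5.39 to 12.1 (3 of 4) and muscle markers to 21.5 to 98.1 (3 of 3), no marker present in the table was at 0 in every library, and the 4 neural genes summed to 58.8 to 73.7 CPM in *siNcor1* and 89.8 to 90.9 in *siOct4* at day 3, and to 44.5 to 47.6 and 111 to 126 at day 6.

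*Ncor1*, the scaffold and the target of the siRNA, was lower with *siNcor1* than with *siOct4* at day 3 and was close to the *siOct4* level at day 6. Its level was 7.08 and 7.20 log2-cpm in the *siNcor1* libraries of day 3 (2178 and 2525 reads) and 7.82 and 7.94 in those of *siOct4* (3339 and 1934 reads). At day 6 it was 7.26 and 7.28 log2-cpm with *siNcor1* and 7.33 and 7.13 with *siOct4*. The groups did not overlap at day 3, and at day 6 the *siNcor1* libraries lay between the *siOct4* libraries.

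The difference at day 3 was -0.74 log2 (SE 0.12, adjusted p = 0.0139, limma with Benjamini-Hochberg adjustment over all genes tested), which is a change of -40.3% with a 95% confidence interval of -50.1% to -28.5%. At day 6 it was 0.042 (SE 0.12, adjusted p = 0.815), with an interval of -14.0% to 23.2%, so a difference of the size seen at day 3 lies outside the interval of day 6. The change between the days was itself tested as an interaction and was 0.79 (SE 0.17, adjusted p = 0.00824). In *siNcor1*, *Ncor1* differed between the days by 0.14 (adjusted p = 0.399), whereas within *siOct4* it fell by 0.65 from day 3 to day 6 (adjusted p = 7.5e-04). The call at day 3 rested on all 4 libraries of that day: without any one of them the difference was between -0.80 and -0.68 and its adjusted p between 0.0617 and 0.132. Without the mean-variance trend its adjusted p was 0.0806. The values for the partners at day 6 belong to cells in which a difference in *Ncor1* mRNA between the knockdowns was not detected.

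**Figure D1:**
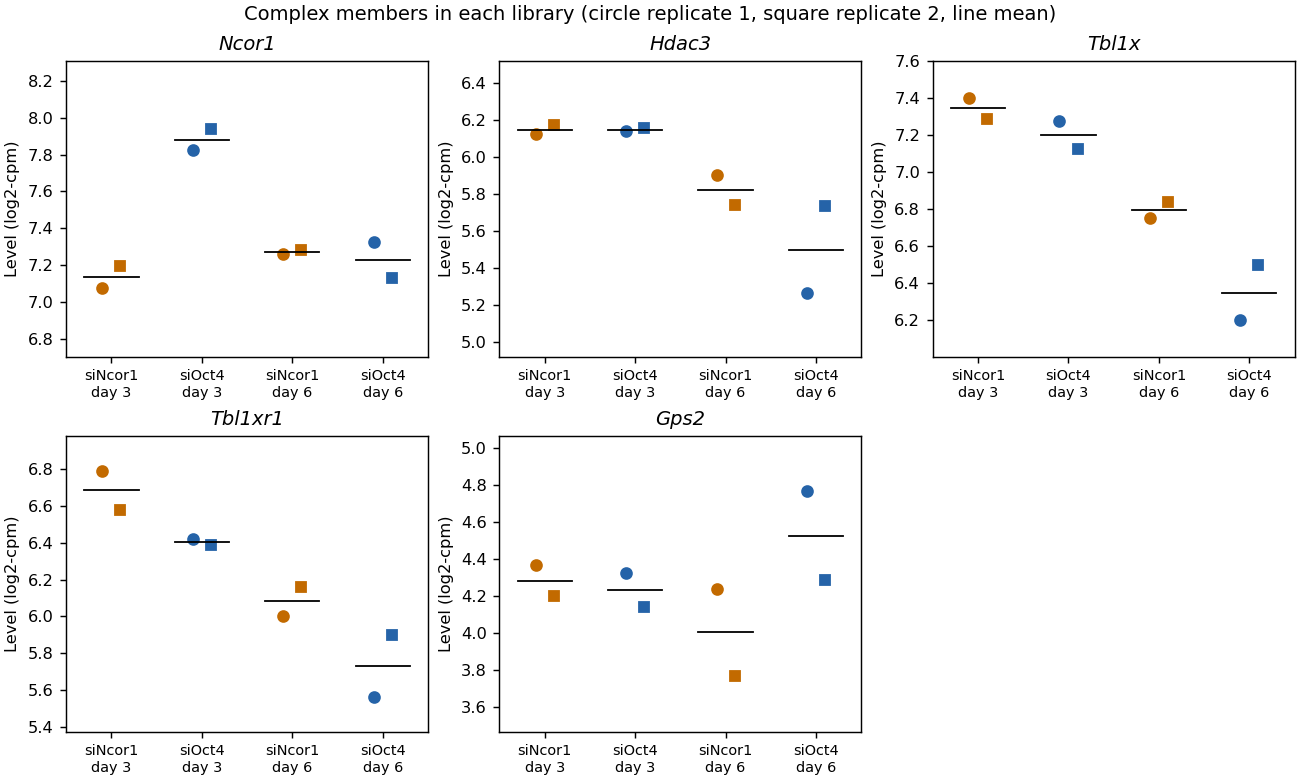
Level of *Ncor1*, *Hdac3*, *Tbl1x*, *Tbl1xr1* and *Gps2* in log2-cpm (vertical axis) in each of the 8 libraries, by group (horizontal axis), with circles for replicate 1, squares for replicate 2, a line for the group mean and orange for *siNcor1*, blue for *siOct4*. *Ncor1* stands at 7.82 and 7.94 in *siOct4* at day 3 and between 7.08 and 7.33 in every other library.

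*Hdac3*, the catalytic subunit, was nearly level between the knockdowns at day 3. It stood at 6.12 and 6.17 log2-cpm with *siNcor1* and at 6.14 and 6.16 with *siOct4*, and the *siOct4* values lay between the *siNcor1* values. The difference was 4.9e-04 (SE 0.15, adjusted p = 0.999, limma), with an interval of -20.4% to 25.8%. On day 6, *Hdac3* was at 5.90 and 5.74 log2-cpm with *siNcor1* and at 5.26 and 5.73 with *siOct4*, which do not overlap, although 5.74 and 5.73 are close, and the difference of 0.32 did not pass (adjusted p = 0.128, interval -0.61% to 57.1%). Without *siOct4* day 6 replicate 2 that difference was 0.56 (adjusted p = 0.00639), and without *siOct4* day 6 replicate 1 it was 0.086 (adjusted p = 0.647). *Hdac3* fell by 0.65 between the days in *siOct4* (adjusted p = 0.00354) and differed by -0.33 in *siNcor1* (adjusted p = 0.113). The fall in *siOct4* was -0.41 without *siOct4* day 6 replicate 1 (adjusted p = 0.0181), and the value in *siNcor1* passed when either *siOct4* library of day 6 was left out (adjusted p = 0.0242 and 0.0247) or only the 2 groups were fitted (adjusted p = 0.0300).

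*Tbl1x* and *Tbl1xr1*, the WD40 subunits that hold the complex together and link it to chromatin and to the ubiquitin system, fell from day 3 to day 6 in both knockdowns, and *Tbl1x* was higher with *siNcor1* than with *siOct4* at day 6. *Tbl1x* was at 7.40 and 7.29 log2-cpm with *siNcor1* and at 7.28 and 7.12 with *siOct4* at day 3. By day 6 it was at 6.75 and 6.84 with *siNcor1* and at 6.20 and 6.49 with *siOct4*, again without overlap. The knockdown difference was 0.14 at day 3 (SE 0.13, adjusted p = 0.820, interval -9.15% to 34.5%) and 0.45 at day 6 (SE 0.13, adjusted p = 0.0224, limma), a level 36.4% higher with an interval of 12.1% to 66.0%. The change of this difference between the days was 0.30 and did not pass (adjusted p = 0.258), so the difference at day 6 is not shown to be absent at day 3. The call at day 6 was lost without *siNcor1* day 6 replicate 1 (0.49, adjusted p = 0.0696), without *siNcor1* day 6 replicate 2 (0.40, adjusted p = 0.159), without *siOct4* day 6 replicate 1 (0.30, adjusted p = 0.0965), when only the 2 groups were fitted (adjusted p = 0.0604) and without the mean-variance trend (adjusted p = 0.0671). From day 3 to day 6 *Tbl1x* differed by -0.55 log2 in *siNcor1* (adjusted p = 0.00698) and by -0.85 in *siOct4* (adjusted p = 2.1e-04), where 0.554 of the day 3 level was left.

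*Tbl1xr1* was at 6.79 and 6.58 log2-cpm with *siNcor1* at day 3 and at 6.42 and 6.38 with *siOct4*. On day 6 *Tbl1xr1* was at 6.01 and 6.16 with *siNcor1* and at 5.56 and 5.90 with *siOct4*. Both *siNcor1* libraries were above both *siOct4* libraries on either day, but neither difference passed the test: it was 0.28 at day 3 (adjusted p = 0.529, interval -1.57% to 50.4%) and 0.35 at day 6 (adjusted p = 0.0781, interval 3.13% to 57.5%). Without *siOct4* day 6 replicate 2 the difference at day 6 was 0.52 and passed (adjusted p = 0.0117), and without *siOct4* day 6 replicate 1 it was 0.18 (adjusted p = 0.341). The difference between the days was -0.60 in *siNcor1* (adjusted p = 0.0065) and -0.67 in *siOct4* (adjusted p = 0.00181). In *siNcor1* the falls of *Tbl1x* and *Tbl1xr1* both lost their call without *siNcor1* day 3 replicate 1 (adjusted p = 0.0572 and 0.0649) or *siNcor1* day 6 replicate 1 (adjusted p = 0.0655 and 0.0681).

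*Gps2*, the small subunit that binds the scaffold together with the WD40 subunits and also acts outside the complex, had the fewest reads of the 5 genes (138 to 331 per library). At day 3 it was at 4.37 and 4.20 log2-cpm with *siNcor1* and at 4.33 and 4.14 with *siOct4*, which overlap. On day 6 *Gps2* was at 4.24 and 3.76 with *siNcor1* and at 4.76 and 4.28 with *siOct4*, so both *siOct4* libraries were higher. The knockdown difference was 0.050 at day 3 (SE 0.20, adjusted p = 0.969, interval -23.7% to 40.4%) and -0.52 at day 6 (SE 0.20, adjusted p = 0.0687, interval -48.7% to -5.59%). The difference at day 6 passed without *siOct4* day 6 replicate 2 (-0.76, adjusted p = 0.0129), without *siNcor1* day 6 replicate 1 (-0.76, adjusted p = 0.0428), with median centring (-0.56, adjusted p = 0.0457) and with quantile normalization (-0.59, adjusted p = 0.0441). It was -0.29 without *siNcor1* day 6 replicate 2 (adjusted p = 0.455) and -0.28 without *siOct4* day 6 replicate 1 (adjusted p = 0.322). Neither day difference passed: it was -0.28 in *siNcor1* (adjusted p = 0.309) and 0.29 in *siOct4* (adjusted p = 0.242), where *Gps2* was the only one of the 5 genes with a positive value. Without *siOct4* day 6 replicate 2 the value in *siOct4* was 0.53 (adjusted p = 0.0425), and without replicate 1 of that group it was 0.053 (adjusted p = 0.849).

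Over the complex, at day 3, 1 of the 5 genes was called between the knockdowns, *Ncor1* itself, where 1.07% of all genes tested were called and 0.375% were called lower. None of the 4 partners was called by limma on the deposited values, by voom on the recovered reads, or at an unadjusted p under 0.05. For 3 of the 5 genes the *siNcor1* and *siOct4* libraries of day 3 were fully apart (*Ncor1*, *Tbl1x*, *Tbl1xr1*), against 43.4% of all genes tested. At day 6, 1 of 5 was called, *Tbl1x*, against 30.7% of all genes called and 18.6% called higher, which is near this background. On that day 4 of 5 were fully apart, against 64.7%.

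From day 3 to day 6, 2 of 5 genes fell in *siNcor1*, *Tbl1x* and *Tbl1xr1*, against 20.9% of all genes that fell there and 34.8% called in either direction. In *siOct4* 4 of 5 fell, all but *Gps2*, against 30.5% that fell and 52.7% called. The median difference over the 5 genes was -0.33 in *siNcor1*, beside -0.068 over all genes tested, and -0.65 in *siOct4*, beside -0.079. These medians depend on the scaling. When the libraries were scaled to their reads without *Gm26917*, the median over all genes moved from -0.079 to 0.055 in *siOct4* and the share of calls that were rises from 42.1% to 52.5%, and the 4 genes still fell there, by 0.51 (*Ncor1*), 0.51 (*Hdac3*), 0.72 (*Tbl1x*) and 0.53 (*Tbl1xr1*). With quantile normalization they fell by 0.41 (*Ncor1*), 0.43 (*Hdac3*), 0.61 (*Tbl1x*) and 0.44 (*Tbl1xr1*), and all 4 were still called. The fibroblast markers summed lower at day 6 than at day 3 in both knockdowns, although in *siNcor1* 6 of the 11 rose and 2 fell (median 0.58), and in *siOct4* 2 rose and 5 fell (median -0.19). Their part in the falls was not tested. The 2 day comparisons and the 2 knockdown comparisons use the same libraries in pairs, so their values are set side by side and are not independent of each other. Of the 5 genes, *Ncor1* was the one whose knockdown difference changed between the days by the interaction test, against 20.7% of all genes and 12.9% with a positive change. No partner passed it, at an adjusted or an unadjusted p under 0.05, with limma, and none passed with voom, but without *siOct4* day 6 replicate 2 the change was 0.56 for *Hdac3* (adjusted p = 0.0283) and -0.81 for *Gps2* (adjusted p = 0.0381).

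**Figure D2:**
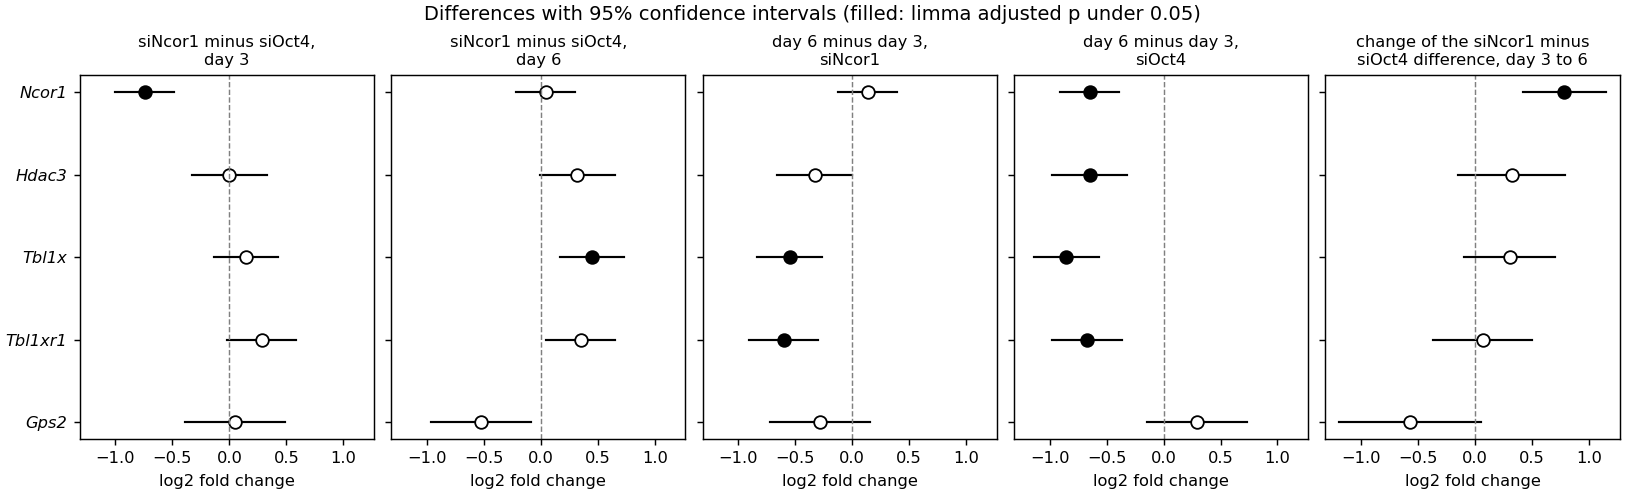
Log2 fold change (horizontal axis) of the 5 genes of the complex in each comparison, with 95% confidence intervals as lines and filled points for an adjusted p under 0.05 (limma, 8 libraries). At day 3 *Ncor1* is filled, at -0.74, and the partners' intervals all include 0, and in the day comparison of *siOct4* all points but that of *Gps2* are filled and lie between -0.85 and -0.65.

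The balance of the subunits within a library is unaffected by a single scaling factor per library, but not by quantile normalization. *Ncor1* minus the mean of its 4 partners was 0.91 and 1.14 (difference in log2-cpm) in the *siNcor1* libraries of day 3 and 1.78 and 1.99 in those of *siOct4*. At day 6 it was 1.54 and 1.66 with *siNcor1* and 1.88 and 1.53 with *siOct4*. The *siNcor1* libraries of day 3 had the lowest values of all 8 libraries, and the range of *siOct4* at day 6 overlapped those of *siOct4* at day 3 and *siNcor1* at day 6.

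*Ncor1* minus *Hdac3* was 0.95 and 1.02 with *siNcor1* and 1.68 and 1.78 with *siOct4* at day 3, without overlap. At day 6 it was 1.36 and 1.55 with *siNcor1* and 2.06 and 1.40 with *siOct4*, which overlap. *Tbl1x* minus *Tbl1xr1* stayed between 0.59 and 0.86 in all 8 libraries, while *Tbl1x* ranged from 6.20 to 7.40 log2-cpm and *Tbl1xr1* from 5.56 to 6.79. *Gps2* minus *Hdac3* lay between -2.02 and -1.66 in the 6 libraries outside *siOct4* day 6, and at -0.50 and -1.45 in that group, whose replicates were far apart.

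**Figure D3:**
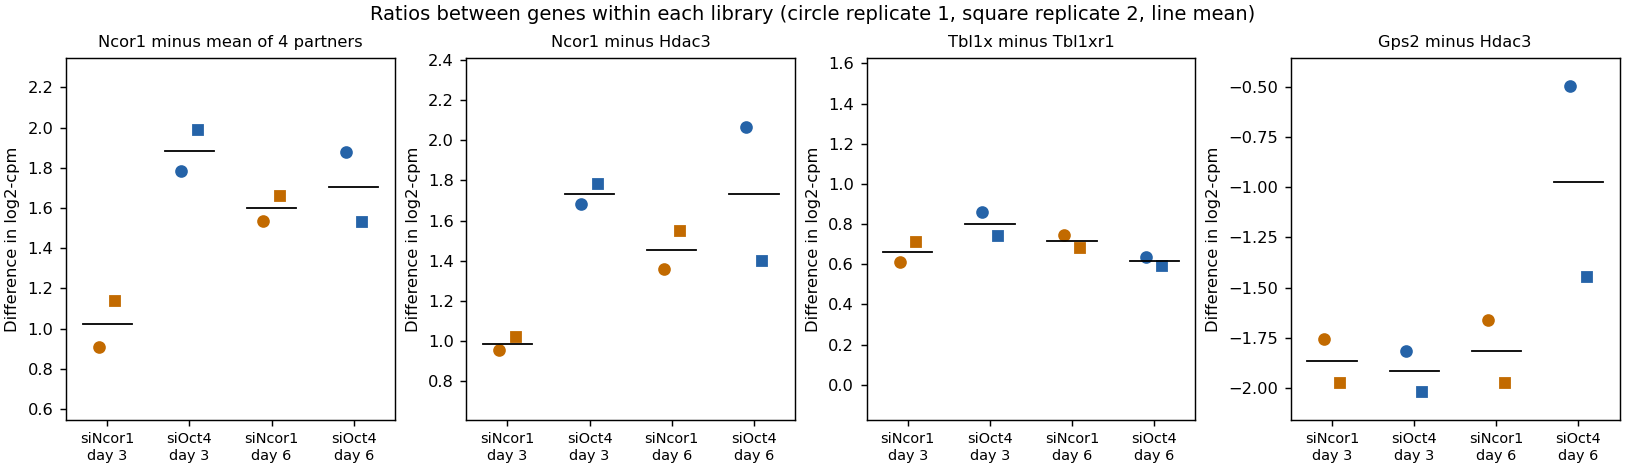
Differences in log2-cpm between genes of the complex within each library (vertical axis) by group (horizontal axis), with circles for replicate 1, squares for replicate 2 and a line for the group mean, orange for *siNcor1* and blue for *siOct4*. *Ncor1* minus the mean of the 4 partners is lowest in *siNcor1* at day 3 (0.91 and 1.14), while *Tbl1x* minus *Tbl1xr1* keeps between 0.59 and 0.86.

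To compare levels between genes, CPM were divided by the length of all annotated exons of the gene in kb, which takes no account of which isoforms the cells use. In *siOct4* at day 3 the order of levels was *Tbl1x* (20.9 ± 1.57 CPM per kb, mean ± SD, n = 2), *Ncor1* (18.4 ± 1.03), *Hdac3* (17.5 ± 0.143), *Gps2* (11.7 ± 1.08) and *Tbl1xr1* (9.48 ± 0.154). The libraries of each neighbouring pair in this order did not overlap, with *Ncor1* at 17.7 and 19.1 and *Hdac3* at 17.3 and 17.5 the closest. In *siNcor1* at day 3 the order was *Tbl1x* (23.1 ± 1.27), *Hdac3* (17.5 ± 0.448), *Gps2* (12.1 ± 0.998), *Tbl1xr1* (11.56 ± 1.197) and *Ncor1* (10.98 ± 0.647), where the last 3 overlapped. *Ncor1* thus stood above *Hdac3* and *Gps2* with *siOct4* and below *Hdac3*, level with *Gps2* and *Tbl1xr1*, with *siNcor1*.

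At day 6 the levels per kb in *siNcor1* were 15.8 ± 0.686 for *Tbl1x*, 13.9 ± 1.12 for *Hdac3*, 12.1 ± 0.139 for *Ncor1*, 10.04 ± 2.34 for *Gps2* and 7.61 ± 0.576 for *Tbl1xr1*. In *siOct4* they were 14.5 ± 3.39 for *Gps2*, 11.7 ± 1.11 for *Ncor1*, 11.6 ± 1.67 for *Tbl1x*, 11.3 ± 2.58 for *Hdac3* and 6.00 ± 0.996 for *Tbl1xr1* (n = 2 each), and *Gps2*, *Ncor1*, *Tbl1x* and *Hdac3* differed there by less than their spread. *Tbl1xr1* was the lowest of the 5 in both groups of day 6.

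**Figure D4:**
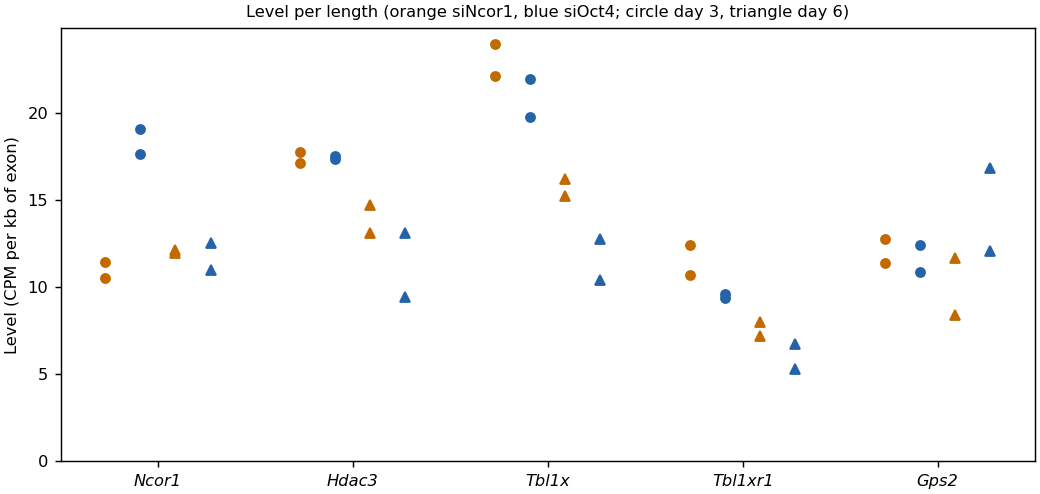
Level in CPM per kb of exon (vertical axis) of each gene (horizontal axis), with 1 point per library, orange for *siNcor1* and blue for *siOct4*, circles for day 3 and triangles for day 6. *Ncor1* lies at 17.7 and 19.1 in *siOct4* at day 3 and at 10.5 and 11.4 in *siNcor1* at day 3.

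Across the 8 libraries, which share days, knockdowns and depth, the levels of *Tbl1x* and *Tbl1xr1* correlated with a Pearson's r of 0.980, those of *Hdac3* and *Tbl1x* with 0.936 and those of *Hdac3* and *Tbl1xr1* with 0.901. The r of *Ncor1* was 0.309 with *Hdac3*, 0.238 with *Tbl1x* and 0.094 with *Tbl1xr1*. *Gps2* had a negative r with each of *Hdac3* (-0.413), *Tbl1x* (-0.369) and *Tbl1xr1* (-0.357). These values are descriptions of 8 libraries that fall into 4 groups and carry no test.

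Among the 9223 tested genes that averaged 10 CPM or more, those whose log2-cpm followed *Ncor1* most closely over the 8 libraries were *Col7a1* (r = 0.939), *Plxna3* (0.912) and *Tssc4* (0.903). For *Hdac3* they were *Fam120c* (0.990), *Rufy1* (0.989) and *Magee1* (0.986), for *Tbl1x* they were *Cntln* (0.996), *Trip12* (0.995) and *Ppp2r5c* (0.994), and for *Tbl1xr1* they were *Tlk2* (0.995), *9930021J03Rik* (0.991) and *Socs6* (0.990). For *Gps2* they were *Nabp2* (0.981), *Ybx3* (0.979) and *Rnpepl1* (0.975).

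The genes around the complex were taken in lists by their known relation to it. At day 3, when *Ncor1* was lower with *siNcor1*, none of the 87 genes of these lists that were tested was called between the knockdowns by limma or by voom, and 10 had an unadjusted p under 0.05. At day 6, 35 of the 87 were called (40.2%, against 30.7% of all genes tested). Whether the calls of either day are related to the level of *Ncor1* was not tested. The fibroblast markers were also higher with *siNcor1* at day 6 (9 of 11 called), and their part in these differences was not tested.

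Among the deacetylases, 3 of 4 class IIa genes, whose proteins bind the complex, were higher with *siNcor1* at day 6 (median of the list 0.65). In that comparison 18.6% of all genes tested were higher and 30.7% were called. *Hdac9* was at 0.84 (adjusted p = 0.026) and *Hdac7* at 0.72 (adjusted p = 0.00853, limma). None of the 3 other class I genes was called at day 6, and *Hdac1* rose by 0.38 between the days in *siOct4* (adjusted p = 0.0213, limma), where *Hdac3* fell. Of the 7 accessory factors, *Kdm4a*, a histone demethylase found with the complex, was higher with *siNcor1* at day 6 (0.58, adjusted p = 0.00511), and *Coro2a*, which encodes the actin-binding coronin 2A, was lower (-1.69, adjusted p = 0.00267, limma). *Ipmk*, a kinase that makes inositol phosphates, which HDAC3 binds together with the scaffold, fell by 0.61 from day 3 to day 6 with either siRNA (adjusted p = 0.00326 in *siNcor1* and 0.00159 in *siOct4*). The 8 subunits of the TRiC chaperonin, which folds HDAC3 among other proteins, fell in 6 cases between the days in *siNcor1* (median -0.65), led by *Cct3* (-0.95) and *Cct6a* (-0.81), and in 4 cases in *siOct4* (median -0.39), where *Cct5* rose by 0.55. Of all genes tested, 20.9% fell in *siNcor1* and 30.5% in *siOct4*.

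Of the nuclear receptors that bind the complex, 14 of 16 were tested, and 7 were higher and none lower with *siNcor1* at day 6, where 18.6% of all genes tested were higher. The largest differences were those of *Pparg*, a receptor of adipocyte differentiation (1.40, adjusted p = 9.8e-04), and *Vdr*, the vitamin D receptor (1.12, adjusted p = 0.00235). Between the days *Vdr* fell by 0.95 with *siNcor1* and by 2.35 with *siOct4*. *Ppard* rose in *siNcor1* by 0.86, and *Nr1h3*, the receptor LXRα, rose in *siNcor1* by 0.79 and in *siOct4* by 0.76. Of 8 other factors that recruit the complex, 4 were higher and 1 lower with *siNcor1* at day 6, with *Runx1t1* at 1.38 (adjusted p = 4.6e-04), *Bcl6* at 0.87 (adjusted p = 0.00116) and *Zbtb16* at -1.23 (adjusted p = 0.0191), the last with 15 to 35 reads per library at day 6.

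Of 15 genes of other corepressor complexes, 3 were higher and 1 lower with *siNcor1* at day 6. Among all genes tested, 30.7% were called in that comparison and 18.6% were higher, so this list is near the background. *Tle2*, a Groucho corepressor, was at 0.71 (adjusted p = 0.0363), *Sin3b* at 0.63 (adjusted p = 0.00193) and *Rcor2* at -0.80 (adjusted p = 0.0438, limma). *Kdm1a* and *Rcor1*, of the CoREST complex, fell between the days in *siNcor1* by 0.59 and 0.41, while *Rcor2*, of the same family as *Rcor1*, rose by 0.83 (adjusted p = 0.0331) and *Sin3b* by 0.86 (adjusted p = 1.9e-04). Between the days in *siNcor1*, 2 of the 15 rose and 5 fell, where 34.8% of all genes tested were called and 20.9% fell. Of 8 coactivators, which take the place of the complex on receptors with a ligand, 5 were higher with *siNcor1* at day 6. In that comparison 18.6% of all genes tested were higher. *Kat2b* was at 0.68 (adjusted p = 0.00932) and *Ncoa1* at 0.58 (adjusted p = 0.0112, limma). Between the days in *siOct4*, 7 of the 8 coactivators fell (median -0.60), with *Ncoa1* at -0.82 and *Crebbp* at -0.77. Coactivators and complex genes thus fell side by side in *siOct4*, where 30.5% of all genes fell.

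Of 23 genes known to be repressed by the complex, 20 were tested. At day 3 none was called, where 1.07% of all genes tested were called (median 0.049, beside 0.021 over all genes). At day 6, 7 were higher and 1 lower with *siNcor1* (median 0.52, beside 0.025 over all genes, of which 30.7% were called and 18.6% were higher), with *Nfil3*, a clock repressor, at 1.22 (adjusted p = 4.2e-04), *Abca1*, a cholesterol transporter under LXR control, at 1.08 (adjusted p = 8.6e-04) and *Nrarp*, a Notch target, at -1.16 (adjusted p = 0.0197). Between the days *Fabp4* rose in both knockdowns, by 1.41 in *siNcor1* and 1.32 in *siOct4*, *Abcg1* rose by 1.40 in *siNcor1*, and *Pdk4* fell by 1.92 and *Mylip* by 1.60 in *siOct4*.

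**Figure D5:**
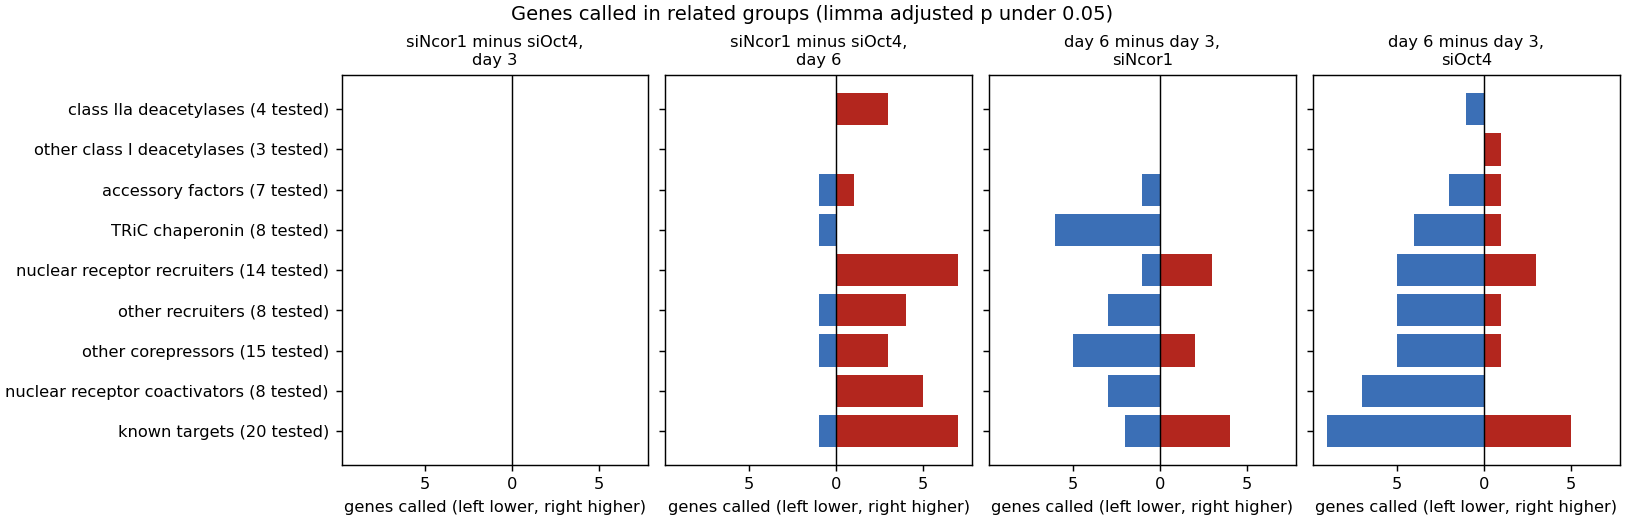
Number of genes called (limma, adjusted p under 0.05) in each list around the complex, lower to the left in blue and higher to the right in red, in the comparisons of knockdowns and of days. No gene is called at day 3, and at day 6 the nuclear receptors show 7 genes higher and the coactivators 5, with none lower in either list. Of all genes tested, 1.07% are called at day 3, and 18.6% are called higher at day 6.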

How the data were processed

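RNA-seq libraries were prepared from ribosome-depleted total RNA and sequenced in pairs. The authors aligned the reads with STAR 2.5.2b to mm10 (GRCm38) and deposited log2-cpm values computed with edgeR 3.20.9, 1 column per library. The counting tool and its strand setting are not given in the sources used here. Removing a constant of 0.136 CPM, 100% of the values were whole multiples of 1 read within 0.1 read, and 3 reads corresponded to 0.174 to 0.380 CPM. Precision rests on 2 libraries per group.

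Of 18990 genes, 18969 matched GENCODE M21 by identifier. Libraries were grouped by the siRNA and day in the labels. Genes averaging 1 CPM or more over the 8 libraries were tested on the deposited log2 values with limma 3.58.1 (lmFit and eBayes with a trend) in R 4.3.3, all 4 groups fitted together, with Benjamini-Hochberg adjustment at 0.05 over all 13866 genes. The fit was tested on simulated data. Intervals are 95% confidence intervals of single genes. All 43-base windows of the GENCODE transcripts were compared on both strands.

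The genes and lists were chosen with earlier results of these data known. Per comparison and list, named genes come from the called ones with the top 2 rises and top 2 falls (all called ones at day 3), and for each gene of the complex the 3 genes most correlated with it. Alternatives were other scalings, filters, a pseudocount of 1, a replicate block, fits of only the groups compared, voom on recovered reads, and leaving out each library. Figures were drawn with matplotlib 3.10.9. Certain genes are not reported here.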

Additional observations from a re-analysis of the deposited data

Results flagged for a closer look

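The knockdown difference (*siNcor1* minus *siOct4*) changed between day 3 and day 6, by the interaction test in limma with Benjamini-Hochberg adjustment, for 1 gene of the complex and for 14 named genes of the lists around it. *Ncor1* changed by 0.79 (adjusted p = 0.00824), from lower with *siNcor1* at day 3 to no detectable difference at day 6, with *siOct4* as the group in which it fell between the days.

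Positive changes were found for the receptors *Pparg* (1.41, adjusted p = 0.00824) and *Vdr* (1.40, adjusted p = 0.00639), the recruiters *Runx1t1* (1.61, adjusted p = 0.00158) and *Bcl6* (0.92, adjusted p = 0.00779), the deacetylase *Hdac7* (0.91, adjusted p = 0.0205) and the corepressors *Sin3b* (0.73, adjusted p = 0.00789) and *Nrip1* (0.64, adjusted p = 0.0321). The targets *Pdk4* (1.54, adjusted p = 0.0138) and *Nfil3* (1.25, adjusted p = 0.00246) changed in the same direction. Negative changes were found for *Coro2a* (-2.44, adjusted p = 0.00338), *Nr0b1* (-1.44, adjusted p = 0.0483), *Zbtb16* (-1.89, adjusted p = 0.0198), *Rcor2* (-1.32, adjusted p = 0.0319) and *Nrarp* (-1.59, adjusted p = 0.0309). Several of the negative changes rest on few reads in the *siOct4* libraries of day 3. There *Coro2a* had 27 and 10 reads, *Nr0b1* 22 and 20, *Zbtb16* 9 and 5 and *Nrarp* 44 and 17. Some positive changes rest on few reads in the *siOct4* libraries of day 6. In those *Pparg* had 27 and 49 reads, *Vdr* 28 and 41, *Runx1t1* 38 and 54 and *Pdk4* 42 and 57. The other genes with positive changes had 110 reads or more there. Of the 87 tested genes of these lists, 20 passed this test (23.0%), near the 20.7% of all genes tested, and the 14 are those that the naming rule picked from them.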

How the results depend on the processing

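All 5 comparisons were recomputed under up to 17 alternatives. *Ncor1* at day 3 kept its direction in all of them (-0.80 to -0.68 when 1 library was left out, with adjusted p from 0.0023 to 0.132) and was -0.74 without the variance trend (adjusted p = 0.0806). Its interaction kept its call in all 16 (0.69 to 0.88, adjusted p up to 0.045). The falls of *Ncor1*, *Hdac3*, *Tbl1x* and *Tbl1xr1* in *siOct4* kept their calls in all 17. Counts of all genes called moved with single libraries. At day 3 the 148 genes became 43 without the trend and 3 (without either *siNcor1* day 3 library) to 375 (without *siOct4* day 6 replicate 1) when 1 library was left out. At day 6 the 4251 became 1398 (without *siNcor1* day 6 replicate 2) to 4669, between the days in *siNcor1* the 4819 became 2360 (without *siNcor1* day 3 replicate 2) to 5954, in *siOct4* the 7312 became 5397 to 7374, and for the interaction the 2867 became 1009 (without *siNcor1* day 3 replicate 2) to 3667. The cause was not tested.

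Of the 5 genes of the complex, 1 was called at day 3, and 0 without the trend and 0 to 1 with 1 library left out. At day 6, 1 was called, and 0 without the trend or with only the groups compared, 2 with median centring, quantile normalization or the replicate block, and 0 (without *siNcor1* day 6 replicate 2 or *siOct4* day 6 replicate 1) to 4 (without *siOct4* day 6 replicate 2) with 1 library left out. In *siNcor1* 2 were called between the days, and 0 (without replicate 1 of either day) to 3 with 1 library left out, in *siOct4* 4, and 4 to 5, and for the interaction 1, and 1 to 3 (without *siOct4* day 6 replicate 2). Signs reversed only for differences that were not called: *Hdac3* at day 3 was -0.010 with median centring and -0.026 to 0.027 with 1 library left out, *Gps2* at day 3 was -0.044 to 0.14, *Ncor1* at day 6 was -0.0062 with quantile normalization and -0.054 to 0.14 with 1 library left out, and the interaction of *Tbl1xr1* was -0.10 to 0.24.

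The labels number the replicates 1 and 2 in each group without naming a shared batch. Deviations from the group means of same-numbered libraries correlated between -0.040 and 0.281, the highest between *siNcor1* and *siOct4* at day 6. The main fit did not take the numbers as pairs, and whether same-numbered libraries share a batch was not tested. With the replicate block, 222, 4698, 5218, 7570 and 3395 genes were called in the 5 comparisons, and *Ncor1* was at -0.74 at day 3 (adjusted p = 0.00919) and 0.79 in the interaction (adjusted p = 0.00645). *Gps2* at day 6 gained a call (-0.52, adjusted p = 0.0206), and the block changed no other call of the complex.

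With 2 libraries a group, a difference of a partner at day 3 within the intervals given is not excluded. The intervals do not give the smallest difference that the test would have called. The lowest depth, 138 reads for *Gps2*, limits that gene most. The control libraries were not analysed here, so a change of both knockdowns alike would not be seen. The intervals come from limma and carry the spread between libraries, whereas the level of 3 reads only converts reads to CPM and measures no error.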
